A study of Mus musculus with 6 samples.

Results

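The genes described here are 44 genes of mitosis and the G2/M transition of the cell cycle. They were chosen by name for their known function, with earlier results of these data known. Of these, 43 were measured among 18193 genes in all. The cyclin gene Ccnb1 had no probe set under that symbol in the array annotation used and has no value here. Levels came from splenic B cells of 6 mice on Affymetrix mouse arrays, 1 array per mouse. In 3 mice both Crebbp alleles were deleted (Crebbp-deleted, CBPΔ/Δ x EµBcl2), and in 3 mice both alleles were flanked by recombination sites (Crebbp-floxed, CBPF/F x EµBcl2). Crebbp encodes the histone acetyltransferase CBP. Mice of both groups carried the Bcl2 transgene under the Eµ immunoglobulin enhancer, which directs expression to the B lineage, so neither group is wild type. The age of the mice and the recombinase that deleted Crebbp are not given in the sources used here. Spleen cells had been frozen and thawed, and B cells were then left untouched while CD43-bearing cells were taken out with beads, a step that also takes out many activated B cells and plasma cells because they carry CD43. Each gene is given by the single-symbol probe set with the highest mean over the 6 samples. Levels are log2 intensities, differences are Crebbp-deleted minus Crebbp-floxed on the log2 scale, and a gene is called where the limma p-value, adjusted by Benjamini-Hochberg over all 18193 genes, is under 0.05.

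A cell enters mitosis when cyclin A and cyclin B complexes with the kinase CDK1 are switched on by CDC25 phosphatases. The kinases PLK1, Aurora A and Aurora B then build the spindle, kinetochores attach chromosomes to it under the watch of the spindle checkpoint, and the anaphase-promoting complex ends mitosis by degrading cyclins. Most of these genes are repressed in resting cells by the DREAM complex and activated in G2 by B-MYB and FOXM1, so their transcripts rise and fall together with the share of dividing cells. Resting splenic B cells divide little, whereas germinal centre B cells and plasmablasts are among the fastest dividing cells of the body.

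One sample stood apart in these genes. Floxed sample 3 was the highest of the 6 samples for 37 of the 43 members, against 13.1% of all genes. Deleted sample 3 was the highest of the deleted samples, and floxed sample 3 the highest of the floxed samples, in 35 of the 43 members, against 13.2% of all genes. For 32 members floxed sample 3 ranked first and deleted sample 3 second of all 6. The share of all genes with this order was not computed, and it cannot exceed 13.1%, because floxed sample 3 must be the highest. Averaged over the members and set against the mean of the 3 floxed samples, levels stood at −0.23, −0.20 and 0.33 in deleted samples 1, 2 and 3, and at −0.35, −0.45 and 0.80 in floxed samples 1, 2 and 3. The targeted gene was lower in every deleted than in every floxed sample, but it was not called. At its representative probe set Crebbp had levels of 9.59, 9.41 and 9.35 in deleted samples and 10.04, 9.87 and 9.95 in floxed samples. The difference was −0.50 (limma adjusted p = 0.078). The groups did not overlap at any of its 4 probe sets, where 10.0% of all genes lay lower without overlap. At the other probe sets the differences were −0.53, −0.79 and −0.97, larger than at the representative. Crebbp passed in 1 of 23 alternative analyses (limma adjusted p = 0.039). Median log2 intensities of the arrays ran from 4.27 to 4.30. The submitters' notes name RMA, which normally equalizes arrays, so these medians cannot tell whether an array differed in quality. Markers of B cells were measured for 9 of 10 genes, all 9 above the median of all probe set means, 4.29.

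**Figure D1:**
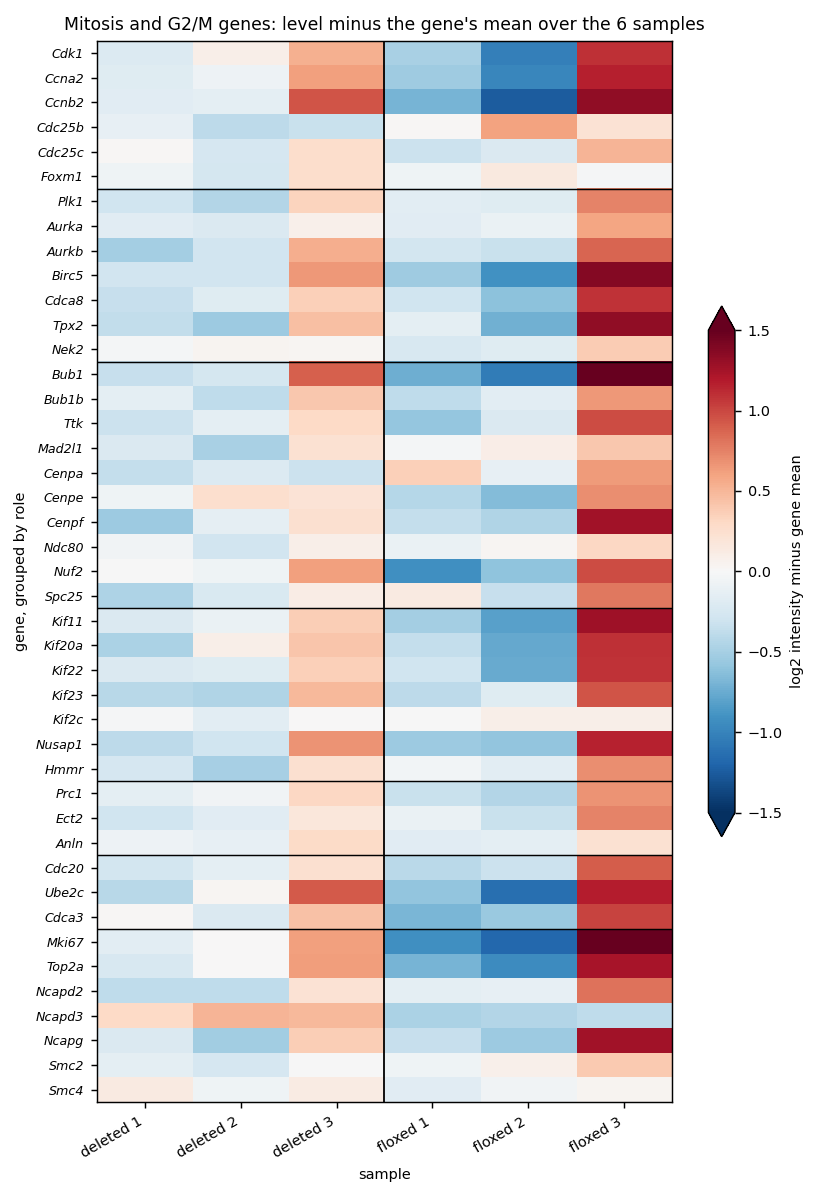
Level of each of the 43 measured members (rows, grouped by role, with lines between the roles) in each sample (columns, deleted left of floxed), as log2 intensity minus that gene's mean over the 6 samples. The column of floxed sample 3 is the highest for 37 genes, and within the deleted group sample 3 is the highest for most of them.

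Between the groups, 1 of the 43 members was called, higher in the Crebbp-deleted samples, and 0 were called lower (limma). Over all genes 0.781% were called, 0.544% higher and 0.236% lower. Before adjustment, 3 of the 43 members had a limma p under 0.05, Ncapd3 higher and Cenpa and Cdc25b lower, against 14.8% of all genes. These 3 were also the members whose groups did not overlap, 1 higher and 2 lower, where 11.2% of all genes lay higher without overlap and 10.0% lower. The median difference of the members was −0.04, beside 0.01 over all genes, and 19 members stood higher and 24 lower. The 95% interval of the difference included 0 in 40 of the 43 members and its median half-width was 0.79, against 0.27 over all genes, so for most members these arrays leave room for sizeable shifts either way. In bulk samples such as these, fewer cells of a type and less RNA per cell cannot be told apart.

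**Figure D2:**
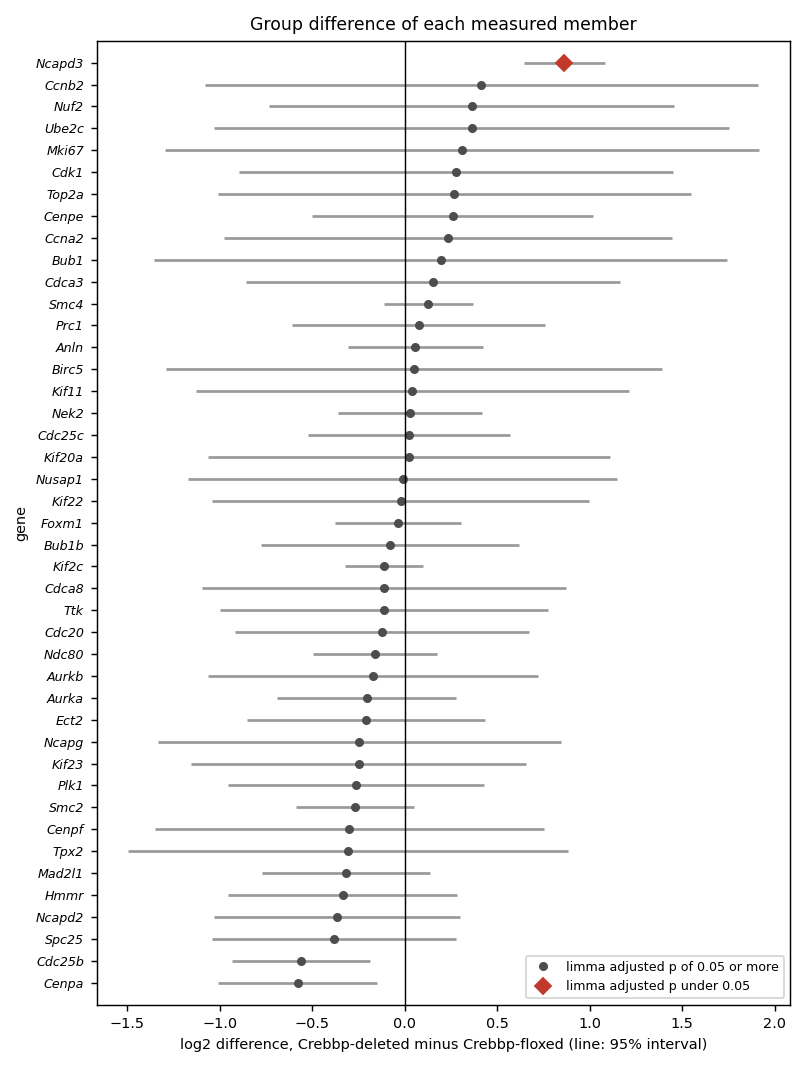
Log2 difference, Crebbp-deleted minus Crebbp-floxed (horizontal axis), of each measured member (vertical axis, sorted), with its 95% interval from limma as a line. Ncapd3 (diamond, 0.86) is the called member, Cdc25b (−0.56) and Cenpa (−0.58) are the other genes whose interval lies on 1 side of 0.

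The called member was Ncapd3, which encodes the CAP-D3 subunit of condensin II, the complex that begins to compact chromosomes inside the nucleus in prophase. Its levels were 6.67, 6.87 and 6.85 in deleted samples and 5.89, 5.92 and 5.98 in floxed samples. All 3 deleted samples lay above all 3 floxed samples, and each group was narrow, with an SD of 0.11 in deleted and 0.05 in floxed samples. The difference was 0.86 ± 0.09 (SE), a 1.82-fold rise in deleted samples (limma adjusted p = 0.016). Leaving out deleted sample 1, 2 or 3 or floxed sample 1 left it short of the threshold (limma adjusted p = 0.057, 0.059, 0.050 and 0.077) with differences from 0.82 to 0.93. The name of its representative probe set carries a suffix that marks probes matching more than 1 transcript. A second probe set of Ncapd3 had levels of 5.26, 5.85 and 5.81 in deleted samples and 4.87, 5.0 and 5.05 in floxed samples, again with no overlap (difference 0.67, limma adjusted p = 0.132 over all named probe sets). The remaining probe set lay below the median of probe sets and its groups overlapped. With the mean of the 3 probe sets the difference was 0.55 and did not pass (limma adjusted p = 0.108). Unlike most of the list, Ncapd3 was not raised in floxed sample 3, whose level of 5.98 lay within 0.1 of the other floxed samples.

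None of the other condensin members was called. Smc2 and Smc4 encode the ATPase core shared by condensins I and II, and Ncapd2 and Ncapg encode subunits of condensin I. Smc4 had levels of 10.28, 10.08 and 10.26 in deleted samples and 9.97, 10.09 and 10.18 in floxed samples, with overlapping groups (difference 0.13 ± 0.10 SE, 95% interval −0.11 to 0.37). Smc2 stood at 7.68 ± 0.12 in deleted and 7.95 ± 0.23 in floxed samples (SD, n = 3 each; difference −0.27, limma adjusted p = 0.409). Ncapd2 and Ncapg had differences of −0.36 and −0.25 with intervals across 0, and both were highest in floxed sample 3, at 7.10 and 5.42. Mki67, the proliferation marker Ki-67 that coats mitotic chromosomes, had levels of 7.07, 7.24 and 7.85 in deleted samples and 6.31, 6.06 and 8.87 in floxed samples. The 3 deleted samples lay between the floxed extremes, which were 7.05-fold apart on the intensity scale, the widest floxed range of any member. Its difference was 0.31 ± 0.69 (SE, limma adjusted p = 0.885). Top2a, the topoisomerase that untangles sister chromatids, behaved alike, at 6.84, 7.09 and 7.71 in deleted samples and 6.39, 6.14 and 8.32 in floxed samples (difference 0.27, 95% interval −1.01 to 1.54).

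**Figure D3:**
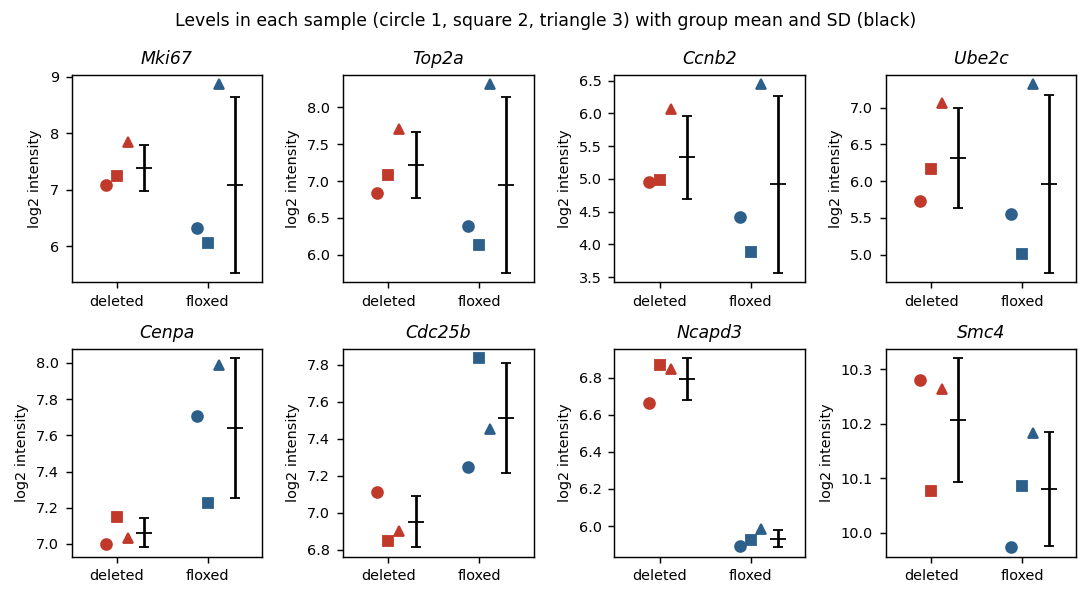
Log2 intensity (vertical axis) of 8 members in each Crebbp-deleted (red, left) and Crebbp-floxed (blue, right) sample, with the group mean and SD in black. In Mki67, Top2a, Ccnb2 and Ube2c floxed sample 3 (triangle) is far above the other floxed samples, whereas in Ncapd3 the groups are narrow and apart.

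Among cyclins and the switches of CDK1, limma called 0 of 6 measured genes (1 at an unadjusted p under 0.05), and the genes split between those tracking sample 3 and those that did not. Ccnb2, a mitotic B-type cyclin, had levels of 4.95, 4.98 and 6.07 in deleted samples and 4.42, 3.88 and 6.45 in floxed samples (difference 0.41 ± 0.64 SE). Cdk1, the mitotic kinase itself, ran at 5.19, 5.48 and 5.94 in deleted and 4.92, 4.37 and 6.50 in floxed samples. In both, and in the cyclin A gene Ccna2 (6.41 ± 0.43 in deleted and 6.18 ± 1.13 in floxed samples), sample 3 was the highest of each group and the groups overlapped. Cdc25b, a phosphatase that starts CDK1 activation, had another order, with 7.11, 6.85 and 6.90 in deleted samples and 7.25, 7.84 and 7.45 in floxed samples. Every deleted sample lay below every floxed sample, by 0.56 on average (± 0.16 SE), but the gene did not pass over all genes (limma adjusted p = 0.168), and its highest value was in floxed sample 2. Cdc25c, its relative, ranged from 3.44 to 3.95 in deleted and from 3.36 to 4.19 in floxed samples, below the median of probe sets throughout. Foxm1, the transcription factor of the G2/M programme, showed little of the spread of its known targets, at 5.23, 5.03 and 5.56 in deleted and 5.23, 5.44 and 5.28 in floxed samples (difference −0.04, 95% interval −0.38 to 0.30).

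Mitotic kinases and the chromosomal passenger complex, which corrects faulty attachments, had 0 of 7 genes called by limma (0 also at an unadjusted p under 0.05), and floxed sample 3 was the highest for all 7. Birc5, the survivin subunit of that complex, had levels of 4.94, 4.95 and 5.88 in deleted samples and 4.70, 4.32 and 6.61 in floxed samples. The group means were close, 5.26 ± 0.54 in deleted and 5.21 ± 1.23 in floxed samples (SD, n = 3 each), while single mice within the floxed group differed 4.88-fold. Aurkb, the kinase of the complex, and Cdca8, its borealin subunit, had differences of −0.17 and −0.11. Plk1, which drives centrosome maturation, had 5.38, 5.25 and 6.02 in deleted samples and 5.52, 5.49 and 6.43 in floxed samples (difference −0.26, limma adjusted p = 0.736). Aurka, the spindle pole kinase, its activator Tpx2 and the centrosome kinase Nek2 had differences of −0.21, −0.31 and 0.03, each within the spread of the floxed samples.

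At the kinetochore and in the spindle checkpoint, limma called 0 of 10 genes (1 at an unadjusted p under 0.05), and floxed sample 3 was the highest for all 10. Cenpa encodes the histone H3 variant that marks centromeres. It stood at 7.0, 7.15 and 7.03 in deleted samples and 7.71, 7.23 and 7.99 in floxed samples, so the groups did not overlap, although deleted sample 2 and floxed sample 2 lay within 0.1 of each other. The difference was −0.58 ± 0.18 (SE), 1.49-fold lower in deleted samples, and did not pass over all genes (limma adjusted p = 0.208). Without floxed sample 3 it was −0.41 (limma adjusted p = 0.322). A second probe set of Cenpa had overlapping groups, 6.17, 6.23 and 5.99 in deleted and 6.08, 6.58 and 6.83 in floxed samples. Deleted sample 3, raised in most members, was not raised in Cenpa at either probe set. The checkpoint kinase gene Bub1 had the largest SD of any member in the deleted group, with 4.6, 4.69 and 5.85 in deleted samples and 4.21, 3.90 and 6.45 in floxed samples. Of the other checkpoint genes, Bub1b, Ttk and Mad2l1 had differences of −0.08, −0.11 and −0.32, all with intervals across 0. In the NDC80 complex, which grips microtubules, Ndc80, Nuf2 and Spc25 had differences of −0.16, 0.36 and −0.38, in different directions and none called. The kinetochore motor Cenpe and the kinetochore protein Cenpf stood 0.26 higher and 0.30 lower (−0.30), also within their spread.

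Spindle motors and cytokinesis genes had 0 of 7 and 0 of 3 members called by limma, and 0 of either at an unadjusted p under 0.05. Kif11, the motor that pushes spindle poles apart, had 3.70, 3.81 and 4.28 in deleted samples and 3.40, 3.09 and 5.18 in floxed samples (difference 0.04). Kif20a, Kif22 and Kif23, kinesins of the central spindle and of chromosome arms, had differences of 0.02, −0.02 and −0.25, and Nusap1 and Hmmr, which bind spindle microtubules, −0.01 and −0.34. Kif2c, which depolymerises microtubules at centromeres, looked flat at its representative probe set, from 4.84 to 5.0 in deleted and from 4.99 to 5.08 in floxed samples. Another of its 4 probe sets, dimmer, carried the pattern of the list, with 3.42, 3.70 and 4.07 in deleted and 3.19, 2.82 and 5.04 in floxed samples. So the choice of probe set decided whether Kif2c followed floxed sample 3. The cytokinesis genes Prc1, a bundler of midzone microtubules, Ect2, the activator of RhoA at the cleavage furrow, and Anln, the furrow scaffold anillin, had differences of 0.07, −0.21 and 0.06. Anln was dim, at most 3.36 in deleted and 3.31 in floxed samples.

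Of the 3 genes grouped here with the anaphase-promoting complex, limma called 0 (0 also at an unadjusted p under 0.05), and they held the widest gap between sample 3 and the rest of its group. Ube2c, its ubiquitin-conjugating enzyme, had 5.73, 6.17 and 7.07 in deleted samples and 5.55, 5.0 and 7.32 in floxed samples. Deleted sample 3 came near floxed sample 3 here, and the difference between groups was 0.36 ± 0.59 (SE). Its activator Cdc20 and Cdca3, which promotes mitotic entry, had differences of −0.12 and 0.15. Averaged over these 3 genes, sample 3 stood 0.47 above the deleted mean in the deleted group and 1.10 above the floxed mean in the floxed group. Every other role showed the same order in the floxed group, where sample 3 was 0.54 to 0.86 above the group mean.

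The spread within the groups was large for most members. The median SD over 3 samples was 0.34 in the deleted and 0.72 in the floxed group, against 0.13 and 0.13 over all genes. In the floxed group 31 of the 43 members exceeded 0.43, the 95th percentile of SDs over all genes, and in the deleted group 16 exceeded 0.39, the 95th percentile there. The SD was larger in the floxed than in the deleted group for 38 members, where 53.1% of all genes had this order. The group difference was smaller than the floxed SD in 36 of the 43 members, against 52.5% of all genes. Exceptions with SDs near those of ordinary genes in both groups were Ncapd3, Kif2c and Smc4. Other probe sets of the same genes gave a second reading of floxed sample 3. Of 19 that were not the representatives and lay above the median of probe set means, 12 were highest in floxed sample 3, and of 38 others below that median, 20 were.

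**Figure D4:**
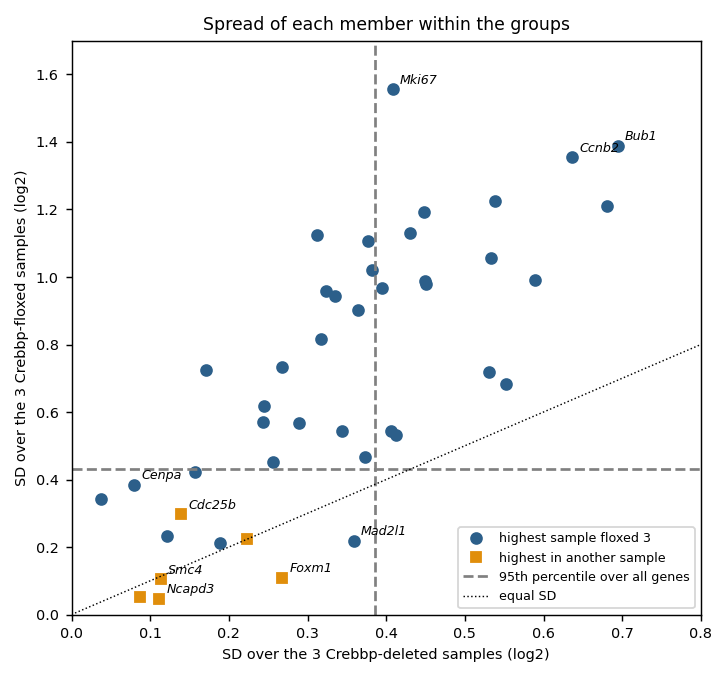
SD over the 3 deleted samples (horizontal axis) and over the 3 floxed samples (vertical axis) of each member, in log2 units, with the 95th percentile over all genes as dashed lines. Most members highest in floxed sample 3 (circles) lie above the dashed horizontal line at 0.43 and above the line of equal SD.

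The direction of the list depended on single mice. Floxed sample 3 was the highest for 37 members, so leaving it out had to raise the difference in those members. Without floxed sample 3, 33 of the 43 members were higher in deleted samples, with a median difference of 0.28 beside 0.01 over all genes, and 16 members had an unadjusted p under 0.05, against 14.2% of all genes. Ncapd3 was still the only one called by limma, among 226 called genes. Mki67 then had a difference of 1.20 (limma adjusted p = 0.076). Without floxed sample 2, 4 members were higher, with a median of −0.30, without floxed sample 1, 7 (−0.21), and without deleted sample 3, 9 (−0.25). Without deleted sample 3 and floxed sample 3 together, an alternative chosen after seeing the data, 27 were higher, the median was 0.15 and limma called Ncapd3 and Mki67 (difference 0.97, adjusted p = 0.046). Xist and Y-linked genes marked deleted samples 1 and 3 and floxed sample 1 as male and the other mice as female. Within males, 2 deleted samples stood against 1 floxed sample, and 39 of 43 members were higher in deleted samples (median 0.37). Within females, 1 deleted sample stood against 2 floxed samples, floxed sample 3 among them, and 4 members were higher (median −0.44). In limma fits that assume the single sample to vary like the other group, 0 members were called in either sex (1 in males and 4 in females at an unadjusted p under 0.05). Floxed samples 2 and 3, both female, had the lowest and the highest mean member level of the 6 samples, −0.45 and 0.80. Deleted sample 2, the female deleted sample, stood at −0.20. The part of sex in these splits was not tested. With sex as a term the median was 0.01, and Ncapd3 was called (limma adjusted p = 0.046).

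The promoters of these genes share short elements that the choice of genes did not use. The RefSeq promoter table for GRCm38.p6 (windows of 300 bases, most of them before each start) held 37 of the 44 genes, in 40 windows because 3 genes have more than 1 start. The cell cycle homology region (CHR), TTTGAA, through which DREAM and B-MYB complexes are known to bind, was found on either strand in 30 of the 40 windows, 75%, against 17.9% of 32851 windows of all genes. The variant TTCGAA was in 4 of the 40 windows, 10%, against 1.56%. The CCAAT box of the factor NF-Y was in 31 windows, 77.5%, against 37.4%, and at least 2 CCAAT boxes were in 21, 52.5%, against 11.7%. A match describes these letters only, and no match says only that they are not in the window. The windows of 5 genes are printed, with CHR, CHR variant and CCAAT letters on either strand in capitals, to set genes that were high in floxed sample 3 beside those whose groups did not overlap. None of the capitals overlap between motifs in these windows. Ccnb2, Mki67, Cdc25b and the upstream Ncapd3 start were chosen after values were seen.
Ccnb2 (chr9:70421505-70421804, minus strand): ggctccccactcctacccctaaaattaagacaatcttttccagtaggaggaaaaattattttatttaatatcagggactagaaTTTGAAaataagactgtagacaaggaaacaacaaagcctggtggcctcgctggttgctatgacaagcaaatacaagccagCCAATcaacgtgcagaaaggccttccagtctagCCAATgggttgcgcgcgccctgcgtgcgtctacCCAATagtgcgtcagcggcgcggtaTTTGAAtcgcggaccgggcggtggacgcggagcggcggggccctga
Mki67 (chr7:135716330-135716629, minus strand): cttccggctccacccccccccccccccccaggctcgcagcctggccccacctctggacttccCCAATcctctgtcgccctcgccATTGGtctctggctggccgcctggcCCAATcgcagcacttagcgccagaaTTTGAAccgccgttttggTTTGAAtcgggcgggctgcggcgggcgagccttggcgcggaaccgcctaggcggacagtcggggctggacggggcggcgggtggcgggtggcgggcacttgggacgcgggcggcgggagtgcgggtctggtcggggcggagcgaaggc
Cenpa (chr5:30666636-30666935, plus strand): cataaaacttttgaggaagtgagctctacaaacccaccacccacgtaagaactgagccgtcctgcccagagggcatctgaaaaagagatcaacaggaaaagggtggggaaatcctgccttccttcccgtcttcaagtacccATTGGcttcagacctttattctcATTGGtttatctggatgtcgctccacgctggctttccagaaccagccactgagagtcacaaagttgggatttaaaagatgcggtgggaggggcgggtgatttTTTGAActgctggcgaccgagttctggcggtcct
Cdc25b (chr2:131186698-131186997, plus strand): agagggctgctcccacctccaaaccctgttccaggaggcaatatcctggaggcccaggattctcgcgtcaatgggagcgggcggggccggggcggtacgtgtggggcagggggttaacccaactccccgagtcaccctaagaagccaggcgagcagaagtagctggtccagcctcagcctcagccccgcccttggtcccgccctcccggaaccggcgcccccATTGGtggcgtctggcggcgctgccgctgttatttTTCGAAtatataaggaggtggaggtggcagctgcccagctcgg
Ncapd3, upstream start (chr9:27029915-27030214, plus strand): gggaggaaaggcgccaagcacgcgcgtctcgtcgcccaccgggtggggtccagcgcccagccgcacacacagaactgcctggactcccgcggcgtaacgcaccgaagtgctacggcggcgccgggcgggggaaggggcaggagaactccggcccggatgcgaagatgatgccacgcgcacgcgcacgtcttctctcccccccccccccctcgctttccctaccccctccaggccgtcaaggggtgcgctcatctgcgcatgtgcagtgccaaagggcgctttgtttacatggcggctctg
Ncapd3, downstream start (chr9:27060166-27060465, plus strand): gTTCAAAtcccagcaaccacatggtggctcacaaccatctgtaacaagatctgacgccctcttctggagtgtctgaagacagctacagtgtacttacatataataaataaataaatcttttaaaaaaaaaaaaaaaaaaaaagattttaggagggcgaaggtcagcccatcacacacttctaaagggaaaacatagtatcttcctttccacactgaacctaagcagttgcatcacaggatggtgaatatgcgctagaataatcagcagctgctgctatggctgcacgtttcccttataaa

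Ccnb2 and Mki67, both raised in floxed sample 3, have 2 CHR matches and 3 CCAAT boxes each in their windows. Cenpa has 1 CHR, just after the start, and 2 CCAAT boxes. Cdc25b has the variant TTCGAA and 1 CCAAT box. At its upstream start Ncapd3, the called member, has none of these motifs, and at its downstream start it has a single CHR match on the minus strand near the far end of the window and no CCAAT box. Birc5, Nusap1, Nuf2 and Mad2l1 have none of these motifs in their windows, and all 4 were highest in floxed sample 3. Their floxed SDs were 1.23, 0.99, 1.02 and 0.22. Whether the motifs go with the levels was not tested.

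Other genes of the cell cycle gave a similar picture at lower amplitude. Of 61 measured further mitotic genes 0 were called by limma, 3 had an unadjusted p under 0.05, and 42 were highest in floxed sample 3. Their mean level stood at −0.20, −0.26 and 0.13 in deleted samples 1, 2 and 3 and at −0.22, −0.24 and 0.46 in floxed samples 1, 2 and 3. The smallest p-values belonged to Plk4, the master kinase of centriole duplication, Iqgap3, Zwilch, of the kinetochore, and Kif18a, a motor that dampens chromosome movement, with differences of −0.57, −0.32, −0.70 and −0.70 and limma adjusted p from 0.186 to 0.348. Of 23 S phase genes 18 were highest in floxed sample 3 and 1 was called, Cdt1, the licensing factor of DNA replication. Cdt1 had 9.46, 9.65 and 9.33 in deleted samples and 10.41, 10.22 and 10.35 in floxed samples, with no overlap (difference −0.84, limma adjusted p = 0.028). Pola1, Mcm5 and Gins1, which serve replication, had differences of −0.54, −0.51 and −0.51 without passing. Cdt1, like Ncapd3, was not raised in floxed sample 3.

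Regulators of the programme had no calls. Of 12 genes of the DREAM and MuvB complexes 0 were called and 0 had an unadjusted p under 0.05 (limma), with a median difference of −0.01. The smallest p-values were those of Lin9, Tfdp1, Lin52 and Rbl1, with differences of −0.24, 0.41, −0.38 and 0.12. Of 16 subunits and partners of the anaphase-promoting complex 0 were called and 3 had an unadjusted p under 0.05, and of 10 cohesin genes 0 and 1. Of 16 brakes on cell cycle entry 0 were called by limma, and 5 had an unadjusted p under 0.05, all higher in deleted samples. These were the CDK inhibitors Cdkn2b, Cdkn1c, Cdkn1b, Cdkn2a and Cdkn1a, the last outside the 4 genes that the naming rule allows. The list as a whole had 9 genes higher and 7 lower, and the CDK inhibitors Cdkn2c and Cdkn2d, also outside that rule, had differences of −0.29 and −0.26 without passing. Cdkn1b, the inhibitor p27 that holds resting lymphocytes out of cycle, had 9.78, 9.91 and 9.62 in deleted samples and 9.46, 9.48 and 9.45 in floxed samples (difference 0.30, limma adjusted p = 0.220). Cdkn2b, Cdkn1c and Cdkn2a had differences of 0.36, 0.38 and 0.79, and Cdkn1a, the inhibitor p21, 0.50. Cdkn2a was dim, with means of 3.92 in deleted and 3.13 in floxed samples, and its groups overlapped. Cdkn2b and Cdkn1c were also dim, with floxed means of 4.18 and 3.96, below the median of probe set means, 4.29. Their deleted means were 4.54 and 4.34.

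Marker levels of several cell types also set single samples apart, not always in the order of the members. Of 10 germinal centre B cell markers 8 were measured, 0 were called by limma (0 also at an unadjusted p under 0.05), and 6 of the 8 were highest in floxed sample 3. Their mean level was 0.62, 0.45 and 0.35 in deleted samples 1, 2 and 3 and −0.43, −0.61 and 1.05 in floxed samples 1, 2 and 3. Rgs13, a germinal centre regulator of G protein signalling picked here after its values were seen, had 7.13, 7.35 and 6.97 in deleted samples and 5.69, 5.06 and 8.49 in floxed samples. Floxed sample 3 was thus the highest and floxed samples 1 and 2 the lowest, as in Mki67. Within the deleted group the order differed, with sample 3 the lowest in Rgs13 and the highest in Mki67 (7.85). The mean of the germinal centre markers was also lowest in sample 3 within that group. Plasma cell markers, with all 13 measured, were highest in deleted sample 3, at 0.68, 0.87 and 1.73 in deleted samples and 0.02, −0.11 and 0.09 in floxed samples, so they did not set floxed sample 3 apart. Of them limma called 1, Jchain, the joining chain of secreted IgM and IgA, higher in deleted samples by 1.65 (adjusted p = 0.011). In all, 12 of the 13 stood higher in deleted samples and 1 lower, and 9 had an unadjusted p under 0.05. Erythroid precursor markers, 11 of 14 measured, stood at −0.12, −0.21 and 0.77 in deleted samples and 0.09, −0.03 and −0.06 in floxed samples. Of the 11, 7 were highest in deleted sample 3, against 4802 of all 18193 genes. Among them Slc4a1, picked after its values were seen, had 2.87, 2.51 and 6.22 in deleted samples and 3.30, 2.70 and 2.80 in floxed samples. The haemoglobin gene Hba-a1 of the list was dim in all 6 samples, from 2.36 to 2.77. Neutrophil markers were highest in sample 3 of each group, at −0.74, 0.08 and 1.09 in deleted samples and −0.10, −0.69 and 0.80 in floxed samples. Macrophage markers ranged from 0.53 to 1.51 in deleted and from −0.67 to 0.69 in floxed samples. Of these 14 markers 13 stood higher in deleted samples and 1 lower, with a median difference of 1.04. Limma called 0 of them, and 7 had an unadjusted p under 0.05, against 14.8% of all genes. T cell markers ranged from 0.08 to 0.14 in deleted and from −0.33 to 0.24 in floxed samples, and platelet markers from −0.15 to 0.09 in deleted and from −0.22 to 0.21 in floxed samples. B cell markers ranged from −0.43 to −0.24 in deleted and from −0.05 to 0.10 in floxed samples, with 1 called, Cd79a of the B cell receptor, lower in deleted samples (difference −1.11, limma adjusted p = 0.0093). The part of any of these in the levels of the mitotic genes was not tested.

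**Figure D5:**
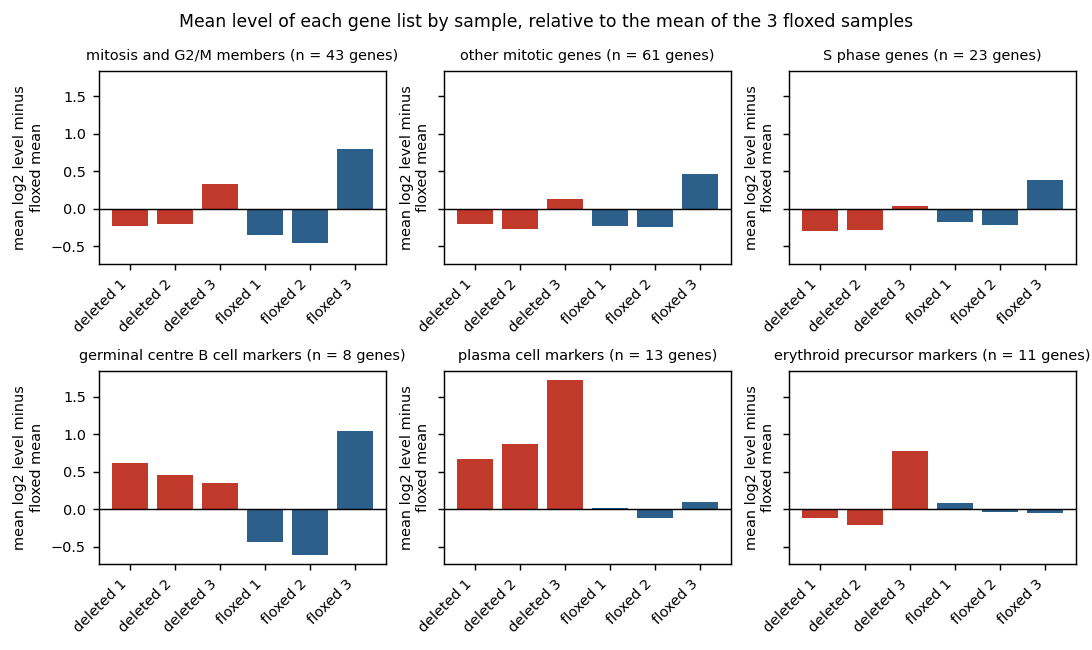
Mean log2 level of 6 gene lists (vertical axis) in each sample (horizontal axis, deleted in red left of floxed in blue), relative to the mean of the 3 floxed samples. Floxed sample 3 is the highest bar for the mitotic, S phase and germinal centre lists, and deleted sample 3 for the plasma cell and erythroid lists.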

How the data were processed

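Gene expression was measured on arrays of 3 Crebbp-deleted and 3 Crebbp-floxed mice, which the series' design text gives as separate mice. Values deposited by the authors are intensities, 1 for each probe set on each array, and the submitters' processing notes name RMA, with no version. They run from 2.96 to 17022, so they were read as linear and log2-transformed here without further normalization. Arrays have no read depth. Their number limits the precision. Of 45101 probe sets 34958 had 1 gene symbol, 932 several and 9211 none in the platform annotation used, and 64 control probe sets were left out. Each of 18193 genes was represented by its single-symbol probe set with the highest mean over the 6 samples.

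The difference between groups was fitted gene by gene in limma (version 3.58.1, under R 4.3.3), using lmFit followed by eBayes with two-sided p-values and without covariates. Adjustment followed Benjamini-Hochberg across the 18193 genes, with a threshold of 0.05. The procedure was tested on simulated data with independent noise in each gene. No simulated sample stood apart over many genes at once, so the simulation does not cover that feature of the members. An exact permutation of 3 against 3 samples cannot give a p under 0.1 and was not used. The members, the lists and the tests were chosen with earlier results of these data known. The text names all measured members and up to 4 genes with the smallest p of each further pathway list, with exceptions stated. Promoters are shown for members without overlap that hold TTTGAA, with additions stated. Alternatives covered normalization, filters, probe set choice, limma settings, the replicate number as a block, the sex of the mice and each sample left out. Figures were drawn with matplotlib 3.10.9.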

Additional observations from a re-analysis of the deposited data

How the results depend on the processing

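Of the 43 members, limma called 1 (Ncapd3) as reported. It called 0 with the mean of a gene's probe sets (3 members at an unadjusted p under 0.05), 0 within males and 0 within females, and 2 without deleted sample 3 and floxed sample 3 together. Leaving out each sample in turn gave 0 to 1. The 0 came without floxed sample 1 and without deleted samples 1, 2 and 3, each with 3 or 4 members at an unadjusted p under 0.05, and fewer samples were then tested. The members higher in deleted samples numbered 19 as reported, 12 with array quality weights, 39 within males, 4 within females, and 4 to 33 when each sample was left out, with 33 without floxed sample 3. Genes called over the whole array numbered 142 as reported, 291 with array quality weights, 449 at an adjusted p under 0.1, 37 with sex as a term, and 236 without deleted sample 3 and floxed sample 3 together. With all named probe sets fitted together 240 of 34958 probe sets were called, 0.687%, against 0.781% of genes. Within males (2 deleted against 1 floxed sample) and within females (1 deleted against 2 floxed) limma called 0 genes, with 1798 and 1237 at an unadjusted p under 0.05. With a single sample in 1 group, assumed to vary like the other, the counts of 0 within a sex say nothing on whether the calls are stable. Leaving out each sample gave 0 to 226, the 0 without floxed sample 1 (1990 at an unadjusted p under 0.05), 226 without floxed sample 3, and 16, 45 and 62 without deleted samples 1, 2 and 3. The cause of these shifts was not tested. Ncapd3 stood higher in deleted samples in all 23 alternatives, from 0.55 to 0.93, and passed in 16. The called S phase gene Cdt1 was lower in all 23, from −1.02 to −0.48, and passed in 13. With the replicate block limma called 1 member, Ncapd3, and 126 genes. The labels give no meaning to the shared numbers, and same-numbered samples correlated at 0.03, 0.10 and 0.01 in their deviations over all genes. Deleted sample 3 correlated more with floxed sample 1 (0.08) than with floxed sample 3. Dim probe sets, such as those of Anln and Cdc25c, limit what can be read from their levels.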

Other observations

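Pttg1, the securin that holds sister chromatids together until anaphase, went against the pattern of the other mitotic genes, and was picked after its values were seen. It had levels of 9.34, 9.96 and 7.31 in deleted samples and 9.29, 9.99 and 9.48 in floxed samples. Deleted sample 3, high in most mitotic genes, was the lowest of the 6 here, and the 2 remaining deleted samples lay within the floxed range (limma adjusted p = 0.649). The cyclin-dependent kinase subunits Cks2 and Cks1b, also picked after their values were seen, were highest in deleted sample 3. Cks2 had 8.81, 8.87 and 9.43 in deleted samples and 8.25, 8.31 and 9.10 in floxed samples. Cks1b had 8.16, 8.06 and 9.05 in deleted samples and 7.68, 7.31 and 9.03 in floxed samples. In both, floxed samples 1 and 2 were the lowest of the 6 and the groups overlapped through floxed sample 3.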
